A study of Homo sapiens with 4 samples.

Results

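The TNF superfamily ligands and receptors were examined in naive NB4 cells, a human acute promyelocytic leukemia line, and in an NB4 clone resistant to arsenic trioxide (ATO). A probe was taken as a member when the gene name printed with it on the array began with TNFSF or TNFRSF followed by its number, or was FAS, FASLG, LTA, LTB or LTBR. This gave 46 probes for 37 genes, of 41000 probes on the array. All 37 gene names were found in RefSeq. They comprised 14 genes for ligands, 6 for receptors with a death domain, 4 for decoy receptors and 13 for the remaining receptors, which mostly act through TRAF adaptors.

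The TNF superfamily ligands are mostly membrane proteins that act as trimers, and many are also shed in soluble form. Receptors with a death domain can recruit FADD and caspases and so start apoptosis, the other signalling receptors recruit TRAF adaptors and activate NF-kappaB and kinase cascades, and decoy receptors bind ligand without passing on a death signal. In blood cells the family is best known for controlling the survival, activation and death of lymphocytes and myeloid cells.

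Total RNA was taken from each line in duplicate, as 2 naive flasks and 2 resistant flasks, labelled with Cy3 and hybridised to Agilent whole-genome arrays, 1 flask to an array. Both lines were grown in RPMI medium with fetal bovine serum, and the methods state that the resistant cells had spent 1 week without ATO before the experiment. The methods also state that the flasks of a line were independent of each other. The resistant line is 1 clone, written NB4-EV-AsR1 in the methods and NB4-VM-AsR1 in the labels, and other resistant clones were not analysed here. All 4 arrays lay on 1 slide with the naive flasks in the first positions and the resistant flasks in the last, so that the line and the position on the slide cannot be told apart.

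Values are log2 processed signal minus the 75th percentile of the array, so that 0 marks the 75th percentile, and a change is the resistant mean minus the naive mean on that scale. Genes were not ranked by level against each other, since probes differ in brightness for the same amount of RNA. Between 27922 and 28244 probes were well above background on each array. The difference between the naive flasks had an SD over probes of 0.71, against 0.37 between the resistant flasks and 1.01 to 1.07 between flasks of different lines. The NB4 label was checked on promyelocyte markers. MPO, CTSG, CD33, PRTN3, AZU1, CSF3R and ANPEP were well above background on all 4 arrays (MPO saturated on all of them and CTSG on 2), and ELANE on 3. Of the 9 probes of these markers 3 (33.3%) were also called different between the lines, against 5.27% of all probes tested. ANPEP was called lower (change -1.83, limma adjusted p = 0.0112). ELANE and AZU1 were called higher (changes 2.49 and 1.17, limma adjusted p = 0.0169 and 0.0472). PRTN3 read 3.16 and 0.80 in the naive flasks and 4.43 and 4.32 in the resistant flasks and was not called. The part of this difference in the results on the members was not tested.

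The promoter sequences of the changed members are given first, since these are the genes on which the comparison turns. The table of RefSeq promoters used here held an entry for 26 of the 37 member genes. The 250 bases before the annotated start are shown for each changed member that had an entry, 5′ to 3′ on the strand of the gene, in build GRCh38.p14, and for genes with more than 1 entry the first one. Capitals mark a match to the NF-kappaB binding motif, searched on both strands by its kappaB consensus.
LTB (lower in the resistant line), chr6:31582426-31582675, minus strand: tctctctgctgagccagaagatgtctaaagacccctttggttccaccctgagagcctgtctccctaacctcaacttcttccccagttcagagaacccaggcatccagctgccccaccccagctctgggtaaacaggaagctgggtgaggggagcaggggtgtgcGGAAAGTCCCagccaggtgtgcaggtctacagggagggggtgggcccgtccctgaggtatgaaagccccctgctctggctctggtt
TNFRSF25 (lower), chr1:6466174-6466423, minus strand: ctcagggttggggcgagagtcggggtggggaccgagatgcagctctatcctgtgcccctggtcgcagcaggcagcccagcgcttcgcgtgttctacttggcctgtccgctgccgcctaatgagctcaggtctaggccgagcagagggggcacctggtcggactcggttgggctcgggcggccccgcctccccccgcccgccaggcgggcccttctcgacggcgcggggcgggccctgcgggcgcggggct
TNFRSF21 (lower), chr6:47309906-47310155, minus strand: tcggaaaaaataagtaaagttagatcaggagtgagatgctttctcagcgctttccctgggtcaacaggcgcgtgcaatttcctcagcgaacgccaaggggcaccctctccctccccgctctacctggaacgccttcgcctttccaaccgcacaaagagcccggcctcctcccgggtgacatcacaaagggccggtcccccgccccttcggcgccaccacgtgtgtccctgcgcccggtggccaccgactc
TNFSF4 (higher), chr1:173205533-173205782, minus strand: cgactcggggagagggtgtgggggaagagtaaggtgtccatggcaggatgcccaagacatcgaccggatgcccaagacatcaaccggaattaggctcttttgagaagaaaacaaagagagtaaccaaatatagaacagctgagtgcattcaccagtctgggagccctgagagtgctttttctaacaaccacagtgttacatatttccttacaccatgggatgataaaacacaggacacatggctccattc
TNFSF13B (higher), chr13:108269379-108269628, plus strand: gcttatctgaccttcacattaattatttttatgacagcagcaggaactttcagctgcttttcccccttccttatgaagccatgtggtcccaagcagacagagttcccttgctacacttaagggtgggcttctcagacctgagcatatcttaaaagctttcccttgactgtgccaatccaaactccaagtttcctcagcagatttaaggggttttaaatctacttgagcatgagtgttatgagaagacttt
TNFRSF6B (higher), chr20:63696402-63696651, plus strand: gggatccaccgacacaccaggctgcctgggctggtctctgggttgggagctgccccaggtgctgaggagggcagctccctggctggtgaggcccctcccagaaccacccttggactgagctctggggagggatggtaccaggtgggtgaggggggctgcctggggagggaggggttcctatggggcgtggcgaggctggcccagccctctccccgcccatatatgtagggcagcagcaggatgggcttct
TNFRSF11B is the changed member that is named only. Of these 6 windows, LTB alone held the kappaB match, which began 86 bases before the start. Counted over every entry of a gene, and not the first alone, such a match stood in at least 1 window of 9 of the 26 member genes (34.6%), against 11.8% of 27305 genes. Counted in the same way, 17 members (65.4%) held GGGCGG, the GC box, on either strand, against 46.2% of genes, and 5 (19.2%) held TATAAA, against 13.0%. In FAS, LTA, TNFRSF19, TNFSF11 and TNFSF13 the kappaB match was absent from the first entry and stood in a later one. A gene with more entries has more windows that can match. Entries per gene were not compared between the members and all genes, so these shares do not show an excess by themselves. These are matches of letters, and binding to them was not measured.

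Of the 46 member probes, 31 for 26 genes could be tested, meaning that both arrays of one line or of both gave a signal well above background. They were fitted with limma in one table with the other probes that met this condition, 28221 in all. The call asked for a difference of 2-fold or more with an adjusted p, by Benjamini-Hochberg over the whole table, under 0.05. This call was met by 8 member probes for 7 genes (25.8% of those tested), against 5.27% of all probes tested. TNFSF4, TNFSF13B, TNFRSF6B and TNFRSF11B, with 5 probes, were higher in the resistant line, where 2.30% of all probes were called higher. LTB, TNFRSF25 and TNFRSF21, with 3 probes, were lower, where 2.97% of all were called lower. With arrays shifted to the median, 6 member probes were called higher and 2 lower. A fit with 1 flask left out draws its spread from the 2 flasks of the other line alone. The naive pair differed more (SD over probes 0.71) than the resistant pair (0.37). Over all probes, as over the members, calls were more frequent without a naive flask and rarer without a resistant flask. A call gained or lost in such a fit is therefore not by itself a property of the gene. TNFRSF25 changed by -4.63 to -3.28 with 1 flask left out.

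Over all members tested, higher and lower values in the resistant line were equally frequent among the larger changes. The median of the absolute change was 1.06 over the 31 member probes, against 0.34 over all probes tested. A change of at least 2-fold, with no test, was seen in 16 of the 31 (51.6%), 8 higher and 8 lower, against 12.3% of all. The values of the 2 lines did not overlap for 22 probes (71.0%), against 52.8% of all. The median signed change was -0.18, against -0.02 over all probes, and it was 0.07 without naive flask 2.

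**Figure D1:**
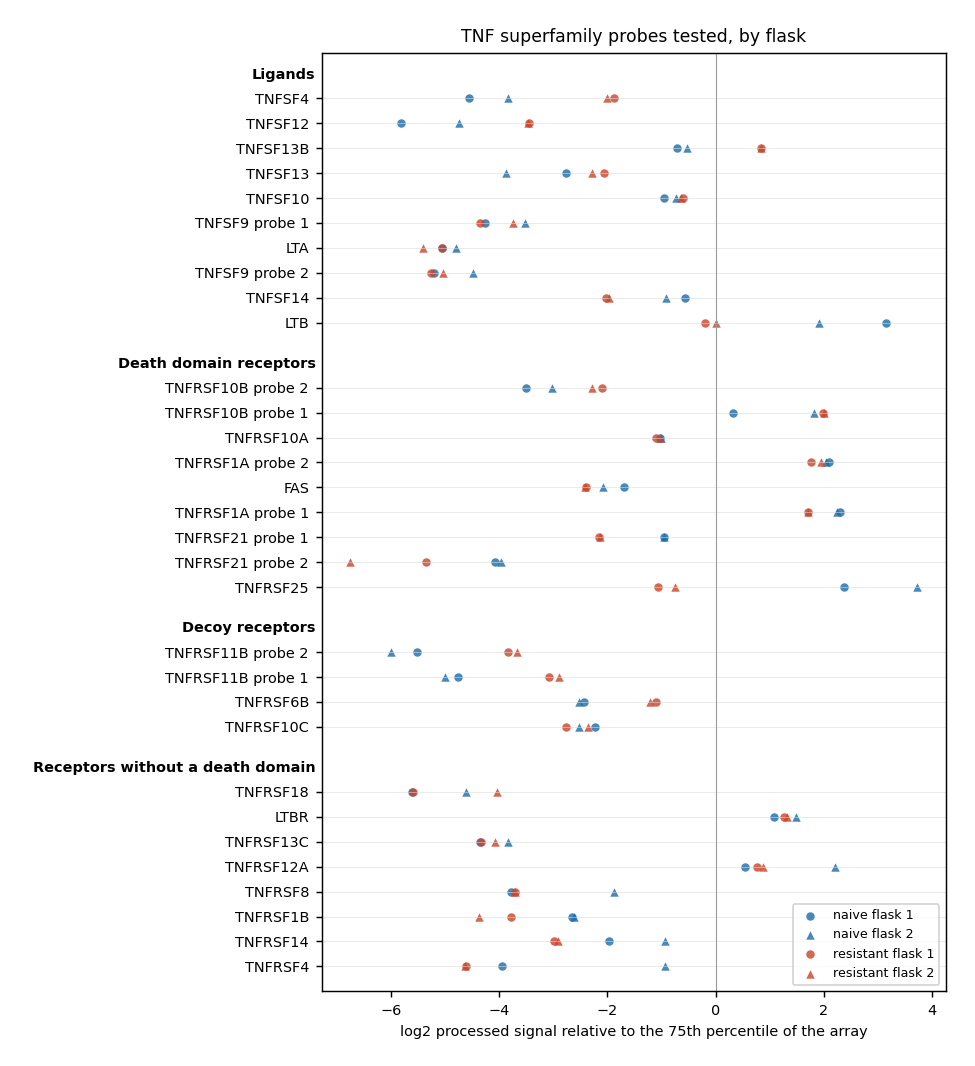
Log2 processed signal relative to the 75th percentile of the array (x axis) for the 31 member probes tested (y axis), grouped by role, with 1 point per flask and no averaging. TNFRSF25 lies at 2.37 and 3.72 in the naive flasks and at -1.07 and -0.75 in the resistant flasks, whereas the TNFRSF4 points of the naive flasks lie at -3.94 and -0.93.

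Among the ligands, 10 probes for 9 genes were tested and 3 were called (30.0%), 2 higher and 1 lower, against 5.27% of all probes called. LTB, lymphotoxin beta, anchors lymphotoxin alpha in the membrane as the ligand of the lymphotoxin beta receptor. Its probe at chr6:31548469-31548528 (hg19, minus strand) read 3.14 and 1.91 in the naive flasks and -0.19 and 0.01 in the resistant flasks. Both naive values were above both resistant values, although flask 2 minus flask 1 was itself -1.23. The change was -2.61 (SE 0.44, limma adjusted p = 0.0365), a 6.12-fold lower level in the resistant line. Adjusted p was 0.126 without resistant flask 1 and 0.0964 without resistant flask 2.

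TNFSF4, the OX40 ligand, costimulates T cells when it is shown by antigen-presenting cells. Its probe at chr1:173153179-173153238 (hg19, minus strand) read -4.55 and -3.83 in the naive flasks and -1.87 and -2.0 in the resistant flasks. Both resistant flasks were above both naive flasks. The change was 2.25 (SE 0.31, limma adjusted p = 0.0191), or 4.77-fold. TNFSF13B, or BAFF, is a survival factor for B cells that myeloid cells produce. Its probe at chr13:108922693-108922752 (hg19, plus strand) read -0.71 and -0.52 in the naive flasks and 0.83 and 0.84 in the resistant flasks, again without overlap. The change was 1.45 (SE 0.22, limma adjusted p = 0.0271), or 2.73-fold. Without a resistant flask neither ligand passed, with limma adjusted p of 0.108 and 0.0896 for TNFSF4 and 0.270 and 0.292 for TNFSF13B.

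Another 3 ligands differed by at least 2-fold without passing the test. TNFSF12, or TWEAK, a ligand with roles in tissue repair, read -5.81 and -4.75 in the naive flasks and -3.45 and -3.47 in the resistant flasks (change 1.82, limma adjusted p = 0.0727). TNFSF14, or LIGHT, a T cell costimulator, read -0.57 and -0.92 in the naive flasks and -2.02 and -1.98 in the resistant flasks (change -1.25, limma adjusted p = 0.0545). In both genes the 2 lines did not overlap. TNFSF13, or APRIL, a plasma cell survival factor closely related to BAFF, read -2.76 and -3.87 in the naive flasks and -2.06 and -2.29 in the resistant flasks (change 1.14, limma adjusted p = 0.226). With either naive flask left out, TNFSF12 changed by 1.29 and 2.35 and TNFSF14 by -1.08 and -1.43. TNFSF13 changed by 1.69 without naive flask 1 and by 0.58, less than 2-fold, without naive flask 2. Since TNFSF12 and TNFSF13 are neighbours that also share a readthrough transcript, TNFSF12-TNFSF13, their probes can read transcripts in common.

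The other tested ligands gave changes of -0.31 to 0.21. TNFSF10, or TRAIL, which kills through the death receptors TNFRSF10A and TNFRSF10B, read -0.96 and -0.73 in the naive flasks and -0.61 and -0.65 in the resistant flasks. Its change of 0.21 had a 95% confidence interval of -0.36 to 0.79, which leaves out a 2-fold difference either way. LTA, lymphotoxin alpha, changed by -0.30 (limma adjusted p = 0.574), and both TNFSF9 probes, for the 4-1BB ligand, by -0.16 and -0.31. These 2 probes share 35 bases and are not independent.

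Among the receptors with a death domain, all 9 probes for the 6 genes were tested, and all 9 had values that did not overlap between the lines, against 52.8% of all probes. These 9 include TNFRSF10A, whose change was -0.06. The call was met by 2 of the 9 (22.2%), both lower in the resistant line, against 5.27% of all probes called and 2.97% called lower. TNFRSF25, death receptor 3, is found mainly on lymphocytes and responds to the ligand TNFSF15. Its probe at chr1:6521245-6521304 (hg19, minus strand) read 2.37 and 3.72 in the naive flasks and -1.07 and -0.75 in the resistant flasks. The lowest naive value lay far above the highest resistant value. The change was -3.96 (SE 0.48, 95% confidence interval -5.17 to -2.75, limma adjusted p = 0.0124), a 15.5-fold lower level, and no tested member had a larger one. With 1 flask left out it lay between -4.63 and -3.28.

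TNFRSF21, death receptor 6, has a death domain and can activate JNK and apoptosis. Its 2 probes do not overlap each other. The probe at chr6:47199483-47199542 (hg19, minus strand) read -0.96 in both naive flasks and -2.16 and -2.14 in the resistant flasks. The change was -1.19 (SE 0.21, limma adjusted p = 0.0446), or 2.28-fold lower. The other probe read -4.08 and -3.96 in the naive flasks and -5.35 and -6.75 in the resistant flasks, where it was well above background on 1 of 2 arrays (change -2.03, limma adjusted p = 0.0951). Both probes were lower in both resistant flasks. The call of TNFRSF21 was the least stable of the 7, kept under 8 of 19 alternatives, and limma adjusted p was 0.412 and 0.462 without resistant flask 1 or 2 and 0.0791 with the replicate number as a block.

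TNFRSF10B, TRAIL receptor 2, was measured by 2 probes that did not overlap each other. The first read 0.33 and 1.82 in the naive flasks and 1.98 and 2.0 in the resistant flasks (change 0.91, limma adjusted p = 0.399). The second read -3.50 and -3.02 in the naive flasks and -2.11 and -2.28 in the resistant flasks (change 1.06, limma adjusted p = 0.108). Both lay higher in both resistant flasks. For the first probe the change was 0.17 without naive flask 1 and 1.66 without naive flask 2. TNFRSF10A, TRAIL receptor 1, read from -1.11 to -1.0 across the 4 flasks, with a change of -0.06 (95% confidence interval -0.60 to 0.49).

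FAS, the receptor of Fas ligand, read -1.69 and -2.08 in the naive flasks and -2.40 and -2.41 in the resistant flasks (change -0.52, limma adjusted p = 0.332). TNFRSF1A, the main TNF receptor of most cells, read 2.29 and 2.23 in the naive flasks and 1.71 and 1.70 in the resistant flasks on one probe (change -0.56, limma adjusted p = 0.253) and changed by -0.22 on the other (limma adjusted p = 0.643). The confidence intervals of both TNFRSF1A probes reached no further than -1.10 on the lower side, and that of FAS reached -1.14.

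Among the decoy receptors, 4 probes for 3 genes were tested and 3 were called, all of them higher in the resistant line, against 2.30% of all probes called higher. The called probes belong to 2 genes. TNFRSF11B, osteoprotegerin, is a secreted receptor that binds RANK ligand and TRAIL. Its probe at chr8:119936401-119936460 (hg19, minus strand) read -4.75 and -5.00 in the naive flasks and -3.08 and -2.89 in the resistant flasks, a change of 1.89 (SE 0.24, limma adjusted p = 0.0136), or 3.70-fold. A second probe, printed 10 times on each array at chr8:119936720-119936779, read -5.51 and -6.00 in the naive flasks and -3.84 and -3.67 in the resistant flasks, a change of 2.0 (limma adjusted p = 0.0170). The 2 probes share no bases and showed like changes without overlap between the lines. The signal was low in the naive cells, where 6 of 10 spots of the second probe were well above background on array 2. The SD between its spots was at most 0.17 on any array. Adjusted p of the first probe rose to 0.105 and 0.153 without resistant flask 1 or 2.

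TNFRSF6B, decoy receptor 3, is a soluble receptor that binds Fas ligand, LIGHT and TL1A. Its probe at chr20:62329631-62329690 (hg19, plus strand) read -2.43 and -2.52 in the naive flasks and -1.11 and -1.22 in the resistant flasks. The flasks of each line lay close together and the lines did not overlap. The change was 1.31 (SE 0.22, limma adjusted p = 0.0355), or 2.49-fold, with limma adjusted p of 0.365 and 0.336 without resistant flask 1 or 2 and 0.0621 with the replicate block. TNFRSF6B shares the readthrough transcript RTEL1-TNFRSF6B with the gene before it, so its probe can also read that transcript. The probe of RTEL1 itself read 0.92 and 1.15 in the naive flasks and 1.35 and 1.45 in the resistant flasks (change 0.37, limma adjusted p = 0.447). TNFRSF10C, a TRAIL decoy receptor, changed by -0.18 (95% confidence interval -0.85 to 0.48).

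**Figure D2:**
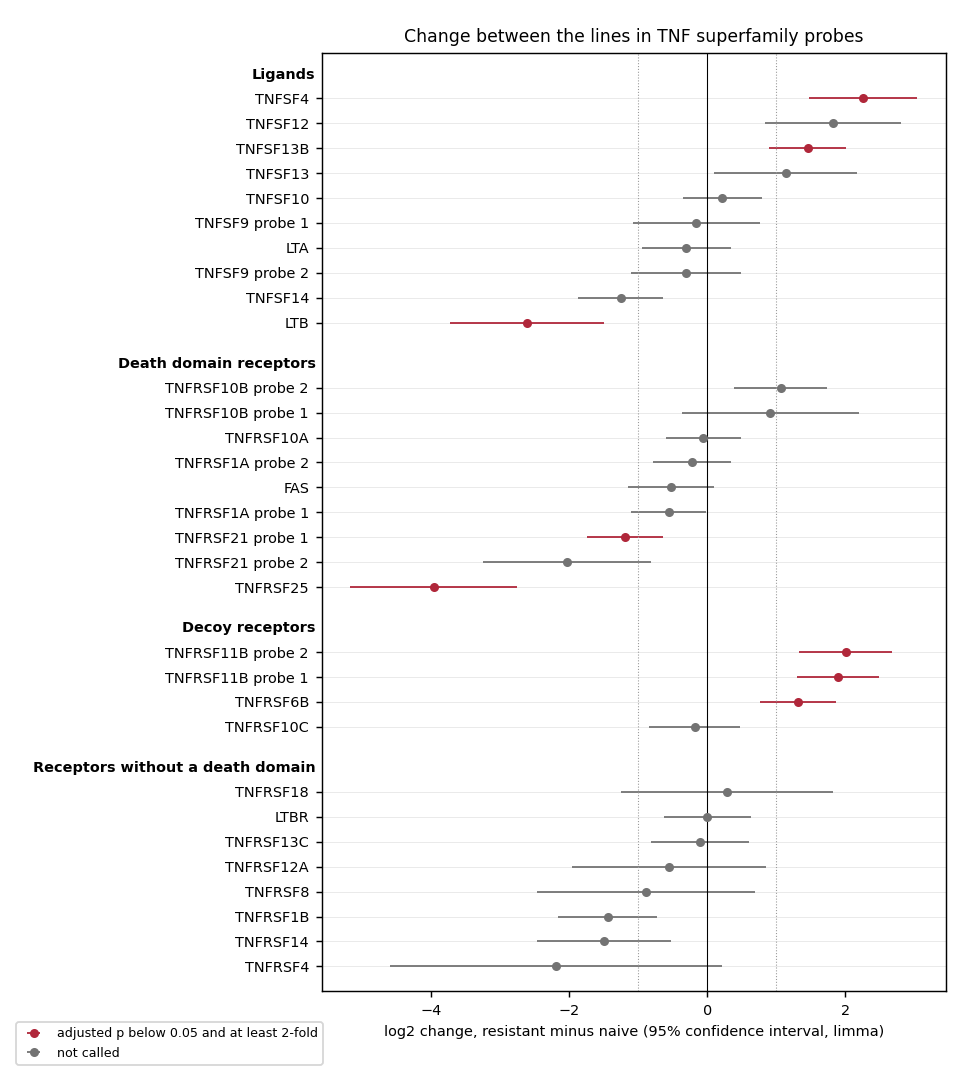
Log2 change, resistant minus naive (x axis), of the 31 member probes tested (y axis), grouped by role, with 95% confidence intervals from limma and dotted lines at a 2-fold change. The 8 called probes are red, and they include 3 of 4 decoy receptor probes, all higher, and 2 of 9 death domain receptor probes, both lower.

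Of the receptors without a death domain, 8 probes for 8 genes were tested and none was called by limma. With so few probes, this is near the 5.27% of all probes called. TNFRSF1B and TNFRSF14, 2 of the 8, had an unadjusted limma p below 0.05, as did 5383 of all 28221 probes. TNFRSF1B, TNF receptor 2, read -2.65 and -2.62 in the naive flasks and -3.78 and -4.38 in the resistant flasks (change -1.44, limma adjusted p = 0.0576). TNFRSF14, or HVEM, the receptor of LIGHT, read -1.97 and -0.94 in the naive flasks and -2.99 and -2.91 in the resistant flasks (change -1.5, limma adjusted p = 0.113). The methods' t-test called TNFRSF1B without adjustment and none of the 8 with Benjamini-Hochberg adjustment. For neither gene did the values of the lines overlap. Leaving out naive flask 1 gave a change of -2.01 for TNFRSF14. Its naive flask 2 read 1.02 above naive flask 1, so the change without naive flask 2 was smaller in size than -1.5.

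In 3 further receptors the difference lay between the naive flasks. TNFRSF4, or OX40, the receptor of the raised ligand TNFSF4, read -3.94 and -0.93 in the naive flasks and -4.61 and -4.64 in the resistant flasks. Its change of -2.19 had an SE of 0.95 (limma adjusted p = 0.30), and was -3.69 without naive flask 1 and -0.68 without naive flask 2. TNFRSF8, or CD30, a receptor of activated lymphocytes, read -3.78 and -1.87 in the naive flasks and -3.71 in both resistant flasks. Its change was -0.88 (limma adjusted p = 0.50), -1.84 without naive flask 1 and 0.07 without naive flask 2. TNFRSF12A, or FN14, the TWEAK receptor, read 0.54 and 2.20 in the naive flasks and 0.76 and 0.87 in the resistant flasks. Its change was -0.55 (limma adjusted p = 0.640), -1.39 without naive flask 1 and 0.28 without naive flask 2. In each of the 3 genes naive flask 2 was the highest of all, and in TNFRSF8 and TNFRSF12A naive flask 1 lay below both resistant flasks.

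LTBR, the lymphotoxin beta receptor, read 1.08 and 1.49 in the naive flasks and 1.27 and 1.31 in the resistant flasks, with a change of 0.00 (95% confidence interval -0.63 to 0.63). TNFRSF13C, the BAFF receptor, changed by -0.10 (95% confidence interval -0.81 to 0.60). TNFRSF18, or GITR, changed by 0.29 with an interval of -1.25 to 1.83, its resistant flasks reading -5.60 and -4.05.

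The naive flasks differed from each other more often among the members than the resistant flasks did. At least 2-fold differences between naive flask 2 and flask 1 were seen in 9 of the 31 member probes (29.0%), against 13.2% of all probes tested. Of these, 7 were higher in flask 2, against 8.66% of all probes, and 2, LTB and TNFSF13, were higher in flask 1. Between the resistant flasks 2 of the 31 member probes differed by as much, against 2.05% of all. The differences of flask 2 from flask 1 were 3.01 for TNFRSF4, 1.91 for TNFRSF8, 1.66 for TNFRSF12A, 1.49 for the first TNFRSF10B probe and 1.35 for TNFRSF25. With 1 array per flask these differences have no test.

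**Figure D3:**
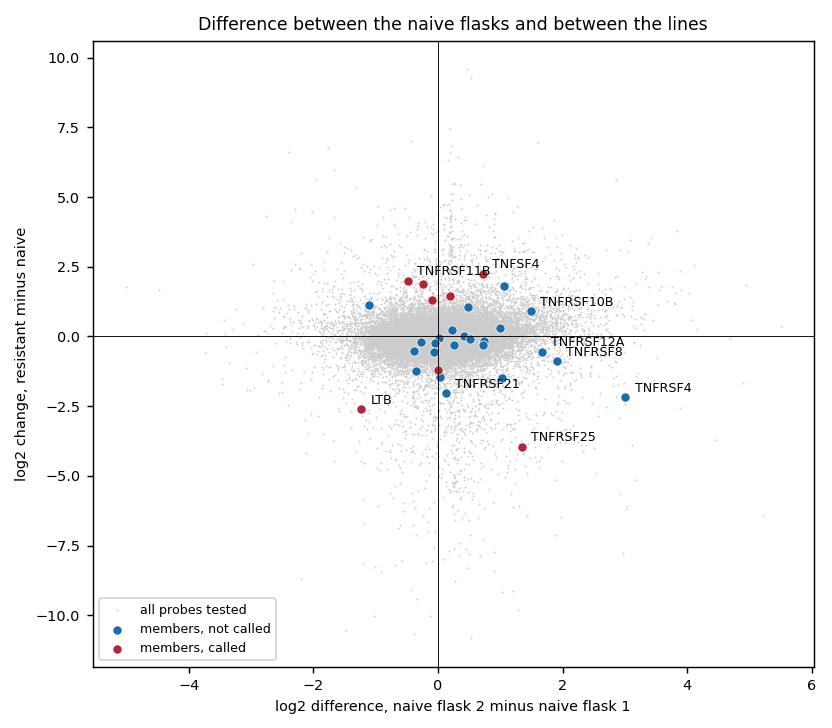
Log2 difference of naive flask 2 minus naive flask 1 (x axis) against the log2 change, resistant minus naive (y axis), for all tested probes measured on both naive arrays (grey) and for the member probes, called in red and not called in blue. Both axes use the naive flasks. TNFRSF4 lies at 3.01 and -2.19 and was not called, whereas TNFRSF25 lies at 1.35 and -3.96 and was.

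The other 11 member genes were not tested. FASLG, TNFRSF10D, TNFRSF11A, TNFRSF13B, TNFRSF17, TNFRSF19, TNFSF8, TNFSF11 and TNFSF18 were not well above background on any array. TNFSF15, the ligand of TNFRSF25, passed background on resistant flask 1 with 1 of its 2 probes. TNFRSF9, or 4-1BB, a costimulatory receptor, read -6.49 and -4.03 in the naive flasks and -6.91 and -7.47 in the resistant flasks, and was well above background in naive flask 2 alone. In all, 30 member probes gave signal well above background on every array and 13 on none. No bound on a fold was needed, since every called member was well above background in both lines.

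Ligands were set beside their known receptors among the members. Of 28 such pairs, both genes were tested in 14. There was no pair with both genes called, 5 had 1 called and 9 had none. For comparison, 25.8% of the member probes tested and 5.27% of all probes tested were called. Genes such as TNFSF10, LTA and TNFSF14 stand in more than 1 of the 14 pairs. The pairs are therefore not independent, and their counts were not tested. LTB changed by -2.61 and its receptor LTBR by 0.00. TNFSF4 changed by 2.25 and TNFRSF4 by -2.19. TNFSF13B changed by 1.45 and TNFRSF13C by -0.10, while the other BAFF receptors, TNFRSF13B and TNFRSF17, were not well above background on any array. TNFRSF11B changed by 1.89 and TNFSF10 by 0.21, and its other ligand, TNFSF11, was not above background. TNFRSF6B changed by 1.31. Of its ligands, TNFSF14 changed by -1.25, FASLG was not above background and TNFSF15 was not tested.

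Family genes that the array names differently were read from a list of 10 genes with 13 probes. Of the 7 probes tested 3 were called, all lower in the resistant line, for TNF and CD70, against 2.97% of all probes called lower. TNF, the inflammatory cytokine that gives the family its name, read 4.09 and 3.31 in the naive flasks and 0.41 and 0.56 in the resistant flasks (change -3.22, limma adjusted p = 0.00666). A second TNF probe read 0.91 and -0.13 in the naive flasks and -2.87 in both resistant flasks (change -3.26, limma adjusted p = 0.0115). CD70, the ligand of CD27, read 3.71 and 4.39 in the naive flasks and 0.94 and 1.0 in the resistant flasks (change -3.08, limma adjusted p = 0.00598). In all 3 probes both naive flasks lay far above both resistant flasks, and each call was kept when any 1 flask was left out. CD27 changed by 0.54 (limma adjusted p = 0.275). CD40LG, EDA2R, EDAR and NGFR were not well above background on any array, and CD40 was on 1.

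Some of these genes are neighbours in the genome. LTA, TNF and LTB lie next to each other on chromosome 6, where their probes span 7.38 kb in hg19, and changed by -0.30, -3.22 and -2.61. TNFSF9, CD70 and TNFSF14 lie within 130.3 kb on chromosome 19 and changed by -0.16, -3.08 and -1.25. TNFSF18 and TNFSF4 lie within 143 kb on chromosome 1, the first not above background and the second higher by 2.25. The TRAIL receptor genes on chromosome 8 lie within 172 kb, where TNFRSF10B, TNFRSF10C and TNFRSF10A changed by 0.91, -0.18 and -0.06. Within the first 2 loci, called and not called genes therefore lay side by side.

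Downstream of the receptors, 31 genes for adaptors, kinases, ubiquitin enzymes, caspases and a sheddase were read with 47 probes, all of them tested. The call was met by 1 probe (2.13%), against 5.27% of all probes. This was TRAF5, an adaptor of OX40, CD27, CD30 and the lymphotoxin beta receptor, which read -0.32 and -0.01 in the naive flasks and -3.43 and -3.27 in the resistant flasks (change -3.18, limma adjusted p = 0.00288). Both naive flasks lay far above both resistant flasks. Among the 46 other probes, 6 differed by at least 2-fold without passing the test, with changes from -1.45 to 1.08. The median change over the 47 probes was -0.01 and the median absolute change 0.35, against 0.34 over all probes. With the replicate block the count was 2 (4.26%), against 4.87% of all probes.

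**Figure D4:**
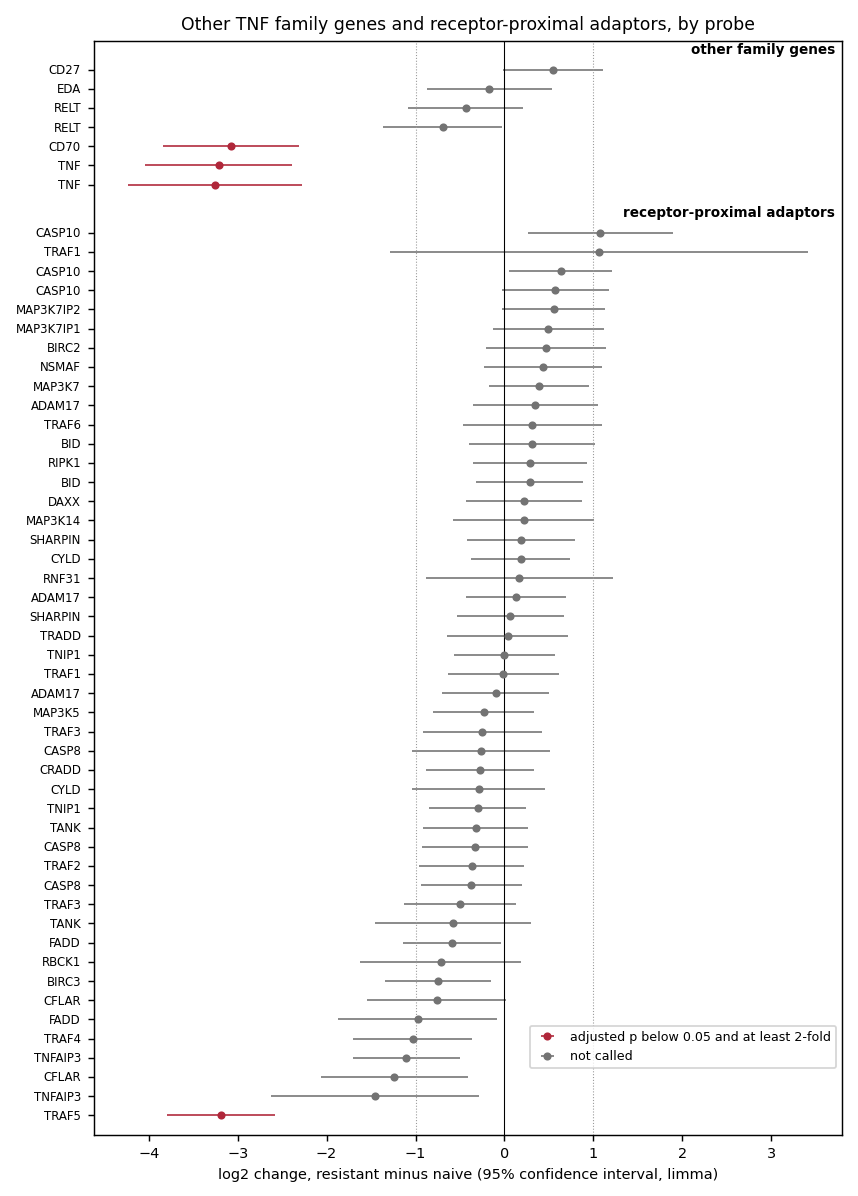
Log2 change, resistant minus naive (x axis), with 95% confidence intervals from limma, for 7 probes of other TNF family genes and 47 probes of receptor-proximal adaptors (y axis, 1 row per probe), called probes in red and dotted lines at a 2-fold change. The 2 TNF probes, CD70 and TRAF5 lie between -3.26 and -3.08, apart from the other probes, which lie between -1.45 and 1.08.

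Because several of the lowered genes are known from lymphocytes, marker lists of other cell types were read beside them. The 5 T cell probes, for CD3D, CD3E, CD3G and CD2, all gave signal well above background in both naive flasks, and 3 did so in both resistant flasks. Their summed linear signal, in units of the array's 75th percentile, was 1.76 and 2.40 in the naive flasks and 0.137 and 0.175 in the resistant flasks. CD3D read 0.70 and 1.16 in the naive flasks. It did not rise well above background in the resistant flasks and was there at least 169-fold lower (limma adjusted p = 0.000755). CD3G, with a called change, was at least 2.19-fold lower, while CD3E and CD2 were not called (changes -0.43, -0.01 and 1.02). Of the natural killer cell markers, NCAM1 was called lower on 1 of its 2 probes, at least 4.66-fold (limma adjusted p = 0.00943), and was not above background in the resistant flasks on either. NKG7 changed by -0.55 and was not called, and KLRD1 was not above background on any array. Their summed signal was 2.30 and 2.45 in the naive flasks and 1.46 and 1.70 in the resistant flasks. Each sum adds probes of unequal brightness and follows the brighter ones. The part of these differences in the lower TNFRSF25, LTB, TNF and CD70 was not tested.

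The B cell markers summed to 1.38 and 1.09 in the naive flasks and 1.5 and 1.6 in the resistant flasks, with MS4A1 and PAX5 not above background. Those of monocytes and macrophages summed to 2.88 and 3.33 in the naive flasks and 6.6 and 7.56 in the resistant flasks, with CD163 not above background. Within this list CSF1R read 1.47 and 1.69 in the naive flasks and 2.70 and 2.90 in the resistant flasks (change 1.23, limma adjusted p = 0.0519), whereas CD14 was lower in the resistant flasks (change -0.50, not called). Of the stromal, endothelial and erythroid markers, none was called by limma, with PDGFRB at an unadjusted p below 0.05. COL1A1, COL1A2, COL3A1, CDH5, TEK and HBB were not above background on any array, whereas PDGFRB was on 3 arrays (change 0.80), VWF on all 4 with 1 of its 2 probes, and EPOR on all 4 with its 3 probes. In bulk RNA, fewer cells that express a gene and less of its RNA per cell cannot be told apart.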

How the data were processed

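Expression was measured in 2 naive and 2 ATO resistant NB4 flasks, grouped by the labels. The authors deposited scanner output of Agilent Feature Extraction 10.5.1.1, whose processed signal is a background-subtracted linear intensity, with mean spot signal and median background as further intensity columns. The authors also deposited log2 values shifted to the 75th percentile in GeneSpring GX 11. Probe names and positions are those of the file headers (hg19), and no annotation of that build was used here.

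In R 4.3.3 and Python 3.11.15, control and outlier spots were left out, processed signals were put on the log2 scale, each array was shifted by its 75th percentile, and spots of a probe were averaged. The result followed the deposited log2 table (Pearson's r at least 0.9998 across probes). Probes with signal well above background on both arrays of either line were fitted with lmFit and eBayes in limma 3.58.1, with Benjamini-Hochberg adjustment over all probes tested. An exact two-sided permutation test of 2 against 2 flasks cannot go below p = 0.333, so the p-values rest on a spread pooled over probes, and they measure the spread between flasks. The script was checked on simulated data. Arrays have no read depth, and their number limits the precision.

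The members and lists were chosen with earlier results of these data known. Every member was accounted for. A gene is given by its brightest probe, other probes where they add to it, and genes of the other family and adaptor lists where called or partners of a called member, with cell type markers named by list. The alternatives were other background corrections, scalings, filters, thresholds and tests, the replicate block, and each flask left out in turn.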

Additional observations from a re-analysis of the deposited data

How the results depend on the processing

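Over all probes, 1487 were called. The count was 3463 at 2-fold with no test, 760 with the filter that all 4 arrays be well above background, 0 under the methods' t-test after Benjamini-Hochberg (4138 with unadjusted p below 0.05) and 0 from limma after normexp (929 unadjusted), and it ranged from 728 to 4538 with 1 flask left out. Of the member probes, 8 were called. The count was 16 at 2-fold with no test, 4 without a filter on dim probes, 0 under the methods' t-test with adjustment (10 unadjusted), 0 from limma after normexp (4 unadjusted), 7 after normexp with bright local backgrounds reset (chosen after the data were seen) and 1 to 17 with 1 flask left out. The 3 other family probes fell to 0 under the adjusted t-test (4 unadjusted) and after normexp with limma (3 unadjusted), and stayed at 3 with each flask left out. The 1 adaptor probe became 7 at 2-fold with no test, 2 under the methods' t-test at an unadjusted p below 0.05, 0 with adjustment (7 unadjusted), 0 from limma after normexp (2 unadjusted), 2 with bright backgrounds reset, 2 under the replicate block, and 1 to 8 with 1 flask left out.

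The member median of -0.18 reversed to 0.10 after normexp and ranged from -0.383 to 0.0669 with 1 flask left out, with 0.0669 without naive flask 2. The all-probe median shifted by 0.15 under normexp and by 0.10 under scale normalization. Among 528 values of single genes, 437 stayed on the same side of zero and of the threshold, 45 dropped below the threshold, 25 rose past it and 21 reversed. The reversals were in genes not called. After normexp LTA gave 0.20, LTBR -0.135, TNFRSF10A 0.10, TNFRSF10C 0.0921, TNFRSF13C 0.21 and TNFSF9 0.27. With bright backgrounds reset LTBR gave -0.0915, TNFRSF10A 0.050 and TNFSF9 0.0424, and scale normalization gave TNFRSF10A 0.0391. With 1 flask left out, the changes ranged from -0.20 to 0.21 for LTBR, -0.383 to 0.0179 for TNFRSF10C, -1.39 to 0.28 for TNFRSF12A, -0.36 to 0.16 for TNFRSF13C, -0.49 to 1.07 for TNFRSF18, -1.84 to 0.0669 for TNFRSF8 and -0.53 to 0.21 for TNFSF9. The cause of these differences was not tested.

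The calls of TNFRSF25, TNF, CD70 and TRAF5 were lost under the adjusted t-test and normexp alone. The others were lost more often, LTB keeping its call in 11, TNFRSF6B in 12, TNFSF13B in 13 and TNFSF4 in 14 of 18 alternatives, and TNFRSF11B in 15 and TNFRSF21 in 8 of 19. Same-numbered flasks deviated with a correlation of 0.12 over 2 pairs, too few to show a pairing. With the replicate number as a block, 1375 of all probes and 6 member probes were called, and TNFRSF6B and TNFRSF21 lost their calls (limma adjusted p = 0.0621 and 0.0791). A slide block could not be fitted with 1 slide. Signal over background limited what could be tested, since 15 of the 46 member probes were too dim.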
